A study of Saccharomyces cerevisiae with 4 samples.

Results

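The pentose phosphate pathway oxidizes glucose phosphate to pentose phosphates and supplies the cell with NADPH and with the ribose of nucleotides. Its oxidative branch runs from glucose phosphate dehydrogenase through phosphogluconolactonase to phosphogluconate dehydrogenase, and its non-oxidative branch returns pentose phosphates to glycolysis through an epimerase, an isomerase, transketolase and transaldolase. In budding yeast several of these steps are encoded by a pair of paralogous genes, of which one is the main copy in growing cells and the other is known as a gene of stress or of growth on poor carbon sources.

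Here 10 genes of the pathway were followed, each measured by 1 of the 6388 gene probes of the arrays. They were chosen by name, with earlier results of these data known. ZWF1 (YNL241C, glucose phosphate dehydrogenase) and RPE1 (YJL121C, the epimerase) were taken as single copies. SOL3 (YHR163W, phosphogluconolactonase), GND1 (YHR183W, phosphogluconate dehydrogenase), TKL1 (YPR074C, transketolase) and TAL1 (YLR354C, transaldolase) were taken as housekeeping copies. Their paralogs SOL4 (YGR248W), GND2 (YGR256W), TKL2 (YBR117C) and NQM1 (YGR043C) were taken as stress copies.

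Expression was measured in BY4742, a haploid laboratory strain of Saccharomyces cerevisiae, otherwise wild type, that carried the centromeric plasmid YCpLac111. Cells grew for a pair of doublings in synthetic complete medium with glucose, made without phosphate and then given either 10 mM (standard) or 75 uM (low) phosphate. Each condition had 2 arrays, called a and b, and every array also carried a common reference, RNA of wild-type BY4742 for which no plasmid is named. The sample was labelled with Cy3 on the a arrays and with Cy5 on the b arrays, so that the letter gives the dye orientation. The series text describes the arrays of a condition as separate cultures. The study's methods describe 2 biological replicates, each repeated with exchanged dyes, which would be more arrays than were found here. The sample titles carry the same number for both arrays of a condition, so a and b may be dye exchanges of a single culture. The spread between arrays, on which all errors and p-values below rest, may thus be partly or wholly technical. The RNA came from whole cultures, in which fewer cells with a transcript and less transcript per cell cannot be told apart. All values below are log2 ratios of sample over common reference unless a difference is named.

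The median spot signal of the sample channel was 254 to 383 over a local background of 38 to 57, and the ratios of all probes spread most on low phosphate b, with an SD of 0.599, where the other arrays had 0.197 to 0.27. The labels were checked with genes of the phosphate regulon, of which the transporter PHO84 was at 2.26 and 2.21 under standard phosphate and 3.47 and 3.92 under low phosphate. Of genes for mating type alpha, the type of this strain, MF(ALPHA)1, MF(ALPHA)2, STE3 and SAG1 had signals over 2 times the background in both channels of all 4 arrays, whereas MFA1, MFA2, STE2 and STE6, which mark mating type a, did so on 1, 0, 3 and 1 arrays. LEU2, listed as a check of the plasmid, read 2.61 and 1.48 under standard phosphate and 0.57 and 1.09 under low phosphate. The difference was -1.21 (SE 0.45), and its signals exceeded 2 times the background in both channels on 0 arrays. A list of 34 genes commonly counted as stress genes, many of them targets of Msn2 and Msn4, was chosen with earlier results of these data known. All 34 had a higher mean in low phosphate, as had 50% of all probes. Between arrays of the same letter, 33 were higher for both letters. HSP12 had a difference, low minus standard phosphate, of -1.16 for a and 1.65 for b, with a mean difference of 0.25 (SE 1.15). GAC1 and SSA3 exceeded 2 times the background in both channels on 0 arrays. The thresholds of the study, given below, were met by 9 of the 34, against 1.6% of all probes. The median of this list was -0.13 and 0.30 under standard phosphate and 0.84 and 2.59 under low phosphate. The level of the stress list therefore differed between the arrays of 1 condition as well as between conditions. Its part in the results below was not tested.

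Low phosphate was compared with standard phosphate for each gene of the pathway, to see whether both copies of a pair responded alike. The mean of each of the 4 stress copies was higher in low phosphate, as was that of 50% of all probes. The differences were 0.95 to 1.97 (1.93- to 3.91-fold) with a median of 1.63, against a median of 4.5e-05 over all 6388 probes. For the housekeeping copies the differences lay between -0.20 and 0.51 with a median of -0.12. Each stress copy lay above each of the other 6 genes of the pathway on both low phosphate arrays, and by a small margin also on standard phosphate b. No gene of the pathway passed an adjusted p of 0.05 in limma, where 1 probe in all did (0.0157% of probes). At an unadjusted p under 0.05, 1 of the 10 genes was counted, TKL2, against 11.5% of all probes.

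**Figure D1:**
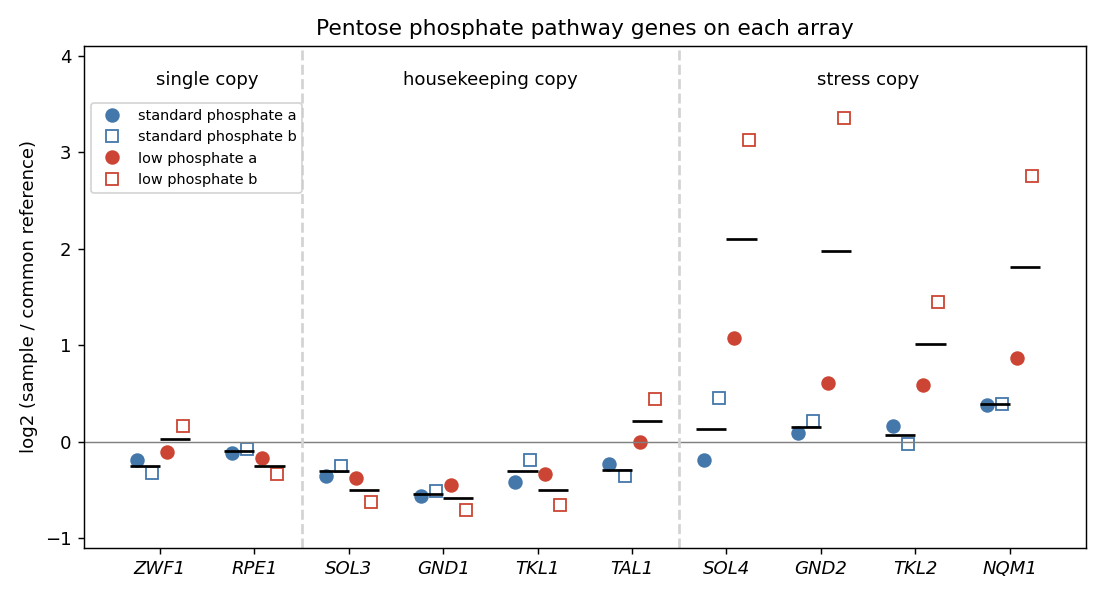
Log2 ratio of sample over common reference (y axis) for each of the 10 genes (x axis), with 1 point per array (blue, standard phosphate, red, low phosphate, filled circles, a arrays, open squares, b arrays) and a bar at the mean of the 2 arrays of a condition. The stress copies are above every other gene on both low phosphate arrays, and their values on low phosphate b, 1.44 to 3.35, are higher than on low phosphate a, 0.59 to 1.07.

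In the oxidative branch, SOL4 read -0.19 and 0.45 under standard phosphate and 1.07 and 3.13 under low phosphate. Both low phosphate arrays were above both standard phosphate arrays, while the low phosphate arrays were themselves far apart. The difference between conditions was 1.97 (SE 0.77), with an adjusted p of 0.42 in limma. GND2 read 0.08 and 0.22 under standard phosphate and 0.61 and 3.35 under low phosphate. It was the highest gene of the pathway on low phosphate b but only the third on low phosphate a, and its difference of 1.83 (SE 0.98, adjusted p = 0.435 in limma) had the widest interval of the 10 genes, 0.541- to 23.4-fold at 95% confidence.

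Their partners stayed near or below the reference. SOL3 read -0.35 and -0.25 under standard phosphate and -0.38 and -0.62 under low phosphate, a difference of -0.20 (SE 0.13, adjusted p = 0.483 in limma) with low phosphate below standard phosphate on every array. GND1 read -0.57 and -0.51 under standard phosphate and -0.45 and -0.71 under low phosphate. Its low phosphate arrays lay on either side of the standard phosphate arrays, and the difference was -0.04 (SE 0.13, 95% interval 0.76- to 1.24-fold). The sign of this small difference turned with print-tip loess, with scale between arrays, with the deposited ratios, with the authors' stated steps and without low phosphate b, with values up to 0.23.

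ZWF1, the entry enzyme of the branch, read -0.19 and -0.33 under standard phosphate and -0.11 and 0.16 under low phosphate. The groups did not overlap, and the difference was 0.28 (SE 0.14, adjusted p = 0.424 in limma).

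In the non-oxidative branch, TKL2 read 0.16 and -0.02 under standard phosphate and 0.59 and 1.44 under low phosphate, and NQM1 read 0.381 and 0.387 under standard phosphate and 0.87 and 2.75 under low phosphate. Both low phosphate arrays were above both standard phosphate arrays for either gene, and NQM1 was above the reference on all 4 arrays. The differences were 0.95 (SE 0.32) for TKL2 and 1.43 (SE 0.67) for NQM1, with an adjusted p of 0.42 and 0.421 in limma. TKL2 had the smallest difference of the 4 stress copies and also the smallest error, and it was the only gene of the pathway over the thresholds of the study, 1.7-fold with an unadjusted p under 0.05 (its unadjusted p was 0.0415 and its adjusted p = 0.42 in limma). The same thresholds called 102 of 6388 probes higher (1.6%) and 94 lower (1.47%). Without either standard phosphate array no gene of the pathway was over them, and without low phosphate a all 4 stress copies were.

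TAL1 was the only housekeeping copy with a higher mean in low phosphate. It read -0.23 and -0.36 under standard phosphate and -0.01 and 0.44 under low phosphate, without overlap of the groups, and its difference was 0.51 (SE 0.19, 1.42-fold, adjusted p = 0.42 in limma). This difference was 0.25 with the authors' stated steps, where GND1 was at 0.23, and 0.29 without low phosphate b, and whether TAL1 differs from the other housekeeping copies was not tested. TKL1 read -0.42 and -0.19 under standard phosphate and -0.34 and -0.66 under low phosphate, with overlapping groups and a difference of -0.20 (SE 0.16). RPE1 read -0.12 and -0.08 under standard phosphate and -0.18 and -0.34 under low phosphate, a difference of -0.16 (SE 0.10). For TKL1 and RPE1 the 95% intervals were 0.637- to 1.2-fold and 0.735- to 1.09-fold in limma, so small changes in either direction lay within the error.

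Counted over the pathway, 6 genes had both low phosphate arrays above both standard phosphate arrays (SOL4, GND2, TKL2, NQM1, TAL1 and ZWF1) and 2 had both below (SOL3 and RPE1). Of all probes, 26.5% were without overlap in the upward direction and 26.8% in the downward direction. For single genes with 2 arrays a condition this separation is therefore frequent, and the sizes carry more of the description. A mean over 1.7-fold higher was found for 4 of the 10 genes, all stress copies, and for 3.49% of all probes. Without low phosphate b, SOL4 was at 0.94, GND2 at 0.46, TKL2 at 0.52 and NQM1 at 0.48, so that 1 of the 10 genes was over 1.7-fold, as were 0.955% of all probes.

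Since the low phosphate arrays were far apart, the conditions were also compared within each dye orientation, where a dye bias of a gene cancels. The reference signals of the stress copies were under 2 times the background on standard phosphate b, so the sizes within the b arrays are uncertain beyond the spread of arrays. On low phosphate a these reference signals were only 2.08 to 2.25 times the background, so the sizes within the a arrays also rest on dim signals. SOL4 was higher by 1.26 within the a arrays and by 2.67 within the b arrays. GND2 was higher by 0.53 and 3.13, NQM1 by 0.49 and 2.37 and TKL2 by 0.43 and 1.46. Every stress copy was thus higher in both orientations, where 50.3% of all probes were higher within a and 49.7% within b. Only SOL4 among the 10 genes was over 1.7-fold higher in both, as were 1.33% of all probes. Among the other genes, ZWF1 and TAL1 were higher and SOL3 and RPE1 lower in both orientations, while GND1 and TKL1 were higher by 0.11 and 0.08 within a and lower by 0.20 and 0.47 within b on the log2 scale.

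**Figure D2:**
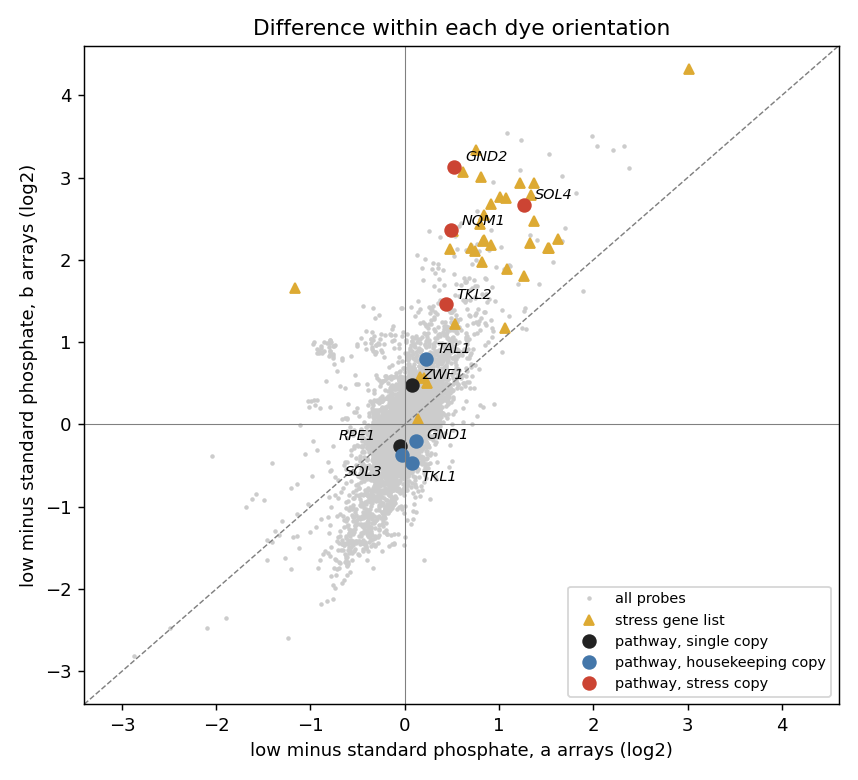
Difference low minus standard phosphate on the log2 scale within the a arrays (x axis) and within the b arrays (y axis), for all 6388 probes (grey), 34 stress genes (yellow triangles) and the genes of the pathway (circles, by class), with a dashed line where both are equal. GND2 and NQM1 lie far above the line, at 0.53 and 0.49 on the a arrays and 3.13 and 2.37 on the b arrays, SOL4 is at 1.26 and 2.67, and SOL3, GND1 and TKL1 lie between -0.03 and 0.11 on the a arrays and between -0.47 and -0.20 on the b arrays.

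The 34 stress genes gave a median of 0.84 within the a arrays and 2.22 within the b arrays. SOL4 was above this median in both orientations, by 0.42 and 0.45. GND2 and NQM1 were below it within a, by 0.32 and 0.35, and above it within b, by 0.91 and 0.15, with the limits of dim signals given above. TKL2 was below it in both, by 0.41 and 0.76. By mean difference, 5 of the 34 stress genes lay above SOL4, 13 above GND2, 23 above NQM1 and 28 above TKL2. The 4 stress copies were thus spread over the range of this list, with SOL4 near its upper end and TKL2 near its lower end.

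A direct view of the copies is given by the difference of the ratios of stress and housekeeping copy on the same array. For SOL4 over SOL3 this was 0.16 and 0.71 under standard phosphate and 1.45 and 3.75 under low phosphate. For GND2 over GND1 it was 0.65 and 0.73, and 1.06 and 4.06. For TKL2 over TKL1 it was 0.58 and 0.17, and 0.93 and 2.10. For NQM1 over TAL1 it was 0.61 and 0.75, and 0.88 and 2.31. In all 4 pairs the low phosphate arrays were above the standard phosphate arrays, and the stress copy had the higher ratio to the reference on every array, in standard phosphate as well.

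The pair difference grew from standard to low phosphate by 2.16 for the lactonase pair, 1.87 for the dehydrogenase pair, 1.14 for the transketolase pair and 0.92 for the transaldolase pair, with a median of 1.51. Tested pair by pair, the exact permutation test over arrays (two-sided) gave p = 0.333 for each pair, which is the smallest p that 2 against 2 arrays allow. Within the a arrays the pairs grew by 1.29, 0.41, 0.35 and 0.27, and within the b arrays by 3.04, 3.33, 1.93 and 1.57. The growth within the b arrays has the same limit of a dim reference, and that within the a arrays also rests on dim signals of the stress copies. The median over the pairs was 0.46 without low phosphate b, 2.52 without low phosphate a and 0.83 with scale between arrays, a setting that gives each array the same spread of ratios.

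**Figure D3:**
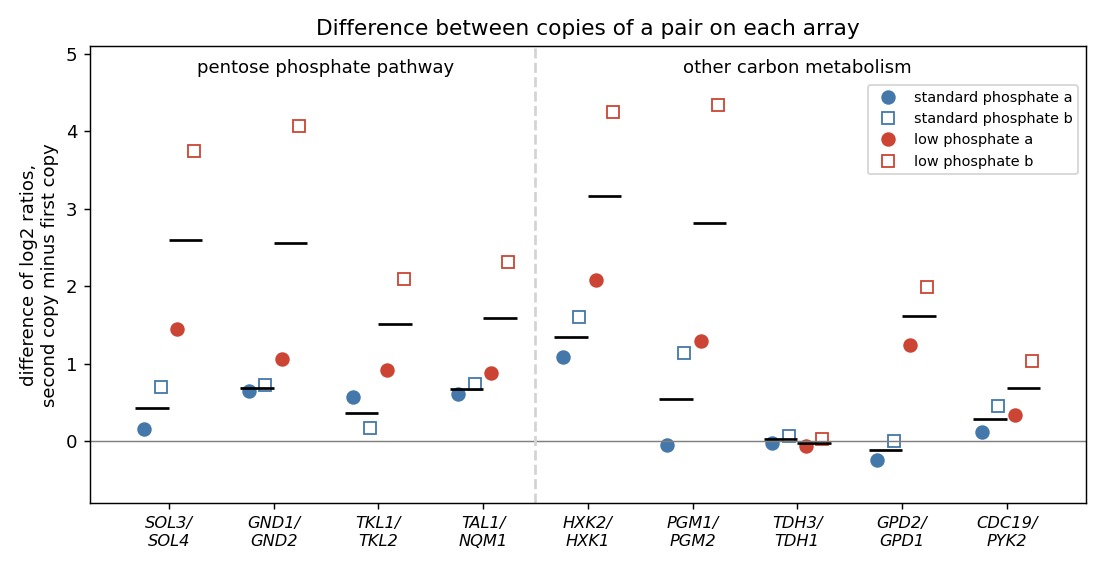
Difference of the log2 ratios of both copies of a pair on the same array, second named copy minus first (y axis), for 4 pairs of the pentose phosphate pathway and 5 other pairs of carbon metabolism (x axis), with 1 point per array (blue, standard phosphate, red, low phosphate, filled circles, a arrays, open squares, b arrays) and bars at the means. In the pathway pairs the low phosphate points, 0.88 to 4.06, are above the standard phosphate points, 0.16 to 0.75, and TDH3/TDH1 stays between -0.06 and 0.07.

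Other pairs of carbon metabolism were listed beside them. The hexokinase pair HXK2/HXK1 grew by 1.82, the phosphoglucomutase pair PGM1/PGM2 by 2.27 and the glycerol phosphate dehydrogenase pair GPD2/GPD1 by 1.73, each without overlap of the groups. The pyruvate kinase pair CDC19/PYK2 grew by 0.41 with overlapping groups, and the glyceraldehyde phosphate dehydrogenase pair TDH3/TDH1 was at -0.04. The pathway pairs lay between these extremes. HXK1 and PGM2 are also on the stress list. Whether they differ from the other pairs was not tested.

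Each stress copy had its highest sample signal on low phosphate b, and the reference signals were low on all arrays. The sample signal of SOL4 was 3.13 and 3.05 times the local background in standard phosphate and 6.47 and 28.7 times in low phosphate, that of GND2 4.37, 2.71, 4.84 and 32.6 times, that of NQM1 4.25, 2.95, 5.55 and 20.8 times and that of TKL2 3.65, 2.23, 4.24 and 7.28 times, in the same order of arrays. In the reference channel the same 4 probes were at 1.66 to 1.8 times the background on standard phosphate b and at 2.08 to 5.48 times on the other arrays. The 4 probes were therefore above the minimum of 2 times background in both channels on 3 of 4 arrays, whereas the other 6 probes were at 8.02 times or more on all. Cross-hybridization between the probes of a pair was not tested. The median difference of the stress copies was 1.96 with a normexp offset of 0 in place of 50, which adds no constant to dim signals, and 1.66 with no background correction. With scale between arrays it was 0.97. Without low phosphate b it was 0.50, and without low phosphate a 2.68.

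**Figure D4:**
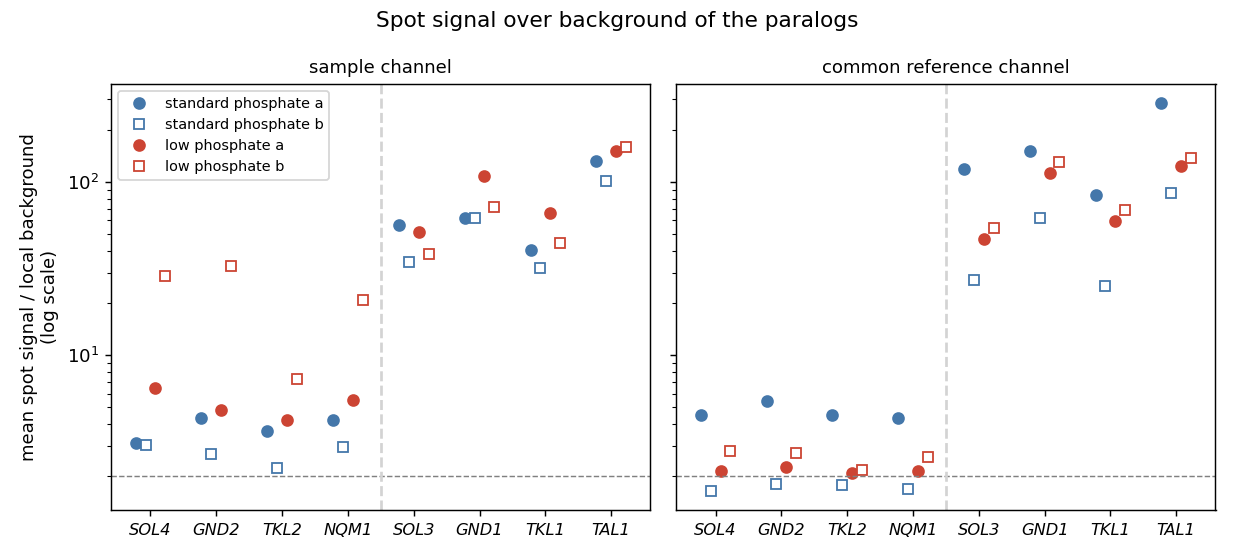
Mean spot signal divided by the local background median (y axis, log scale) of the 8 paralogs in the sample channel (left) and the common reference channel (right), 1 point per array (blue, standard phosphate, red, low phosphate, filled circles, a arrays, open squares, b arrays), with the minimum of 2 dashed. Within each stress copy, low phosphate b is the highest sample signal, 28.7 for SOL4 and 32.6 for GND2, while the reference signals of the stress copies are between 2.18 and 2.82 on that array and between 1.66 and 5.48 over all arrays; signals of different probes are not comparable with each other.

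Against the common reference, all 4 housekeeping copies were lower in standard phosphate on both arrays. The means were -0.54 ± 0.036 for GND1, -0.30 ± 0.072 for SOL3, -0.30 ± 0.16 for TKL1 and -0.30 ± 0.091 for TAL1 (SD, n = 2 arrays). The stress copies were close to the reference, at 0.13 ± 0.46 for SOL4, 0.15 ± 0.093 for GND2 and 0.07 ± 0.13 for TKL2, and NQM1 was at 0.38 ± 0.0039. As given above, both channels of these probes were dim in standard phosphate, so these ratios are uncertain beyond their SD. In low phosphate the means were 2.10 ± 1.45 for SOL4, 1.98 ± 1.94 for GND2, 1.81 ± 1.33 for NQM1 and 1.02 ± 0.60 for TKL2. The order of these 4 did not hold on each array, and neighbours differed by less than their spread. GND1 (-0.58 ± 0.19), SOL3 (-0.50 ± 0.17) and TKL1 (-0.50 ± 0.23) stayed below the reference, and TAL1 was at 0.21 ± 0.32. No gene of the pathway passed an adjusted p of 0.05 against the reference in either condition, where 0.0783% and 0.297% of probes did (limma). At an unadjusted p under 0.05, GND1 and SOL3 were below the reference in standard phosphate, as were 4.3% of all probes. In low phosphate GND1, SOL3, TKL1 and RPE1 were below it, as were 11.3% of all probes, and the 4 stress copies were above it, as were 15.1%. The fit gives both conditions the same error for a gene. Each stress copy had a larger SD in low than in standard phosphate, for GND2 1.94 against 0.093. The error behind these counts is thus smaller for the stress copies than their low phosphate arrays alone would give.

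The spread among the 10 genes was itself wider in low phosphate. From lowest to highest gene the ratios covered 0.95 and 0.97 in standard phosphate, 1.52 on low phosphate a and 4.06 on low phosphate b. The gap between the lowest stress copy, TKL2, and the highest other gene, TAL1, was 0.60 on low phosphate a and 1.003 on low phosphate b. On standard phosphate b the same order held with a gap of 0.06, from TKL2 to RPE1, and on standard phosphate a it did not hold, as SOL4 lay 0.07 below RPE1.

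Further genes of the pathway were listed, of which 12 of 13 were measured. These hold the isomerase RKI1, the lactonase relatives SOL1 and SOL2, sugar kinases, the phosphoribosyl pyrophosphate synthetases PRS1 to PRS5 and the regulator STB5. Of these, 5 were higher and 7 lower in low phosphate (median -0.13, with 50% of all probes higher), and 0 were over the thresholds of the study in either direction or under an unadjusted p of 0.05 in limma. RKI1, singled out after its values were seen, had the lowest difference, low minus standard phosphate, of the pathway genes measured. It read 0.13 and 0.06 under standard phosphate and -0.54 and -1.88 under low phosphate, a difference of -1.30 (SE 0.48, adjusted p = 0.42 in limma) that was -0.63 without low phosphate b. The PRS genes and XKS1 were likewise picked after their values were seen. All 5 PRS genes, which draw on ribose phosphate for nucleotide synthesis, had lower means, from -0.87 for PRS1 to -0.10 for PRS2, and none was over the thresholds. Without low phosphate b, PRS1 was at -0.41, PRS2 at -0.13 and PRS3 at -0.22, while PRS4 and PRS5 were at 0.26 and 0.0056. The xylulokinase, XKS1, had the highest difference of the list, 0.68 (SE 0.24).

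Genes that supply or use NADPH by other routes were mixed. Of 11, 9 had a higher and 2 a lower mean in low phosphate (median 0.12), where 50% of all probes were higher, and 1 was over the thresholds, downward, as were 1.47% of all probes. At an unadjusted p under 0.05 in limma, 3 of the 11 were counted, MAE1, ALD6 and TRR1, against 11.5% of all probes. The gene over the thresholds was the malic enzyme MAE1. It read 0.52 and 0.33 under standard phosphate and -0.38 and -0.82 under low phosphate. Its difference was -1.02 (SE 0.19, unadjusted p = 0.00597, adjusted p = 0.42 in limma). The cytosolic aldehyde dehydrogenase ALD6, singled out after its values were seen and a main source of NADPH beside ZWF1, read -0.60 and -0.17 under standard phosphate and 0.20 and 0.06 under low phosphate, a difference of 0.51 (SE 0.18).

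The genes most like each stress copy were found by the Euclidean distance of the 4 ratios, among 4159 named probes above background on all arrays. For SOL4 they were OM45, a protein of the mitochondrial outer membrane (distance 0.293), RGI1 (0.298) and TFS1, an inhibitor of a vacuolar peptidase (0.361). For GND2 they were the reticulon RTN2 (0.264), OM45 (0.468) and the cytosolic catalase CTT1 (0.504). For NQM1 they were YMR196W (0.336), OM45 (0.478) and the cell wall protein SPI1 (0.52). OM45 was among the nearest genes of all of these, at -0.01 and 0.34 under standard phosphate and 0.90 and 3.02 under low phosphate. TKL2 had other neighbours, the transcription factor TYE7 (0.0637), the cell wall protein HSP150 (0.225) and REE1 (0.267). TYE7, a regulator of glycolytic genes, read 0.22, -0.03, 0.57 and 1.45 on the 4 arrays, close to TKL2 on each of them. Of all these neighbours, OM45, TFS1, RTN2, CTT1 and SPI1 are members of the stress list.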

How the data were processed

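For every spot and channel, the deposited files give a mean intensity and a median intensity of the local background, read by the authors from Agilent scans with Imagene and not normalized. Channel 1 is Cy5 per the labels. The deposited series table holds log2 ratios that the authors made by loess per print tip (span 0.4), with no subtraction of background and with a correction for gene-specific dye bias. Set against the scanner values they run as sample over reference, and they entered an alternative only. A deposited table of the authors' own averages and p-values was not used.

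Background was corrected with normexp (offset 50), loess on the gene spots normalized the arrays one by one, ratios were turned to sample over reference, and both spots of each of 6388 probes were averaged (limma 3.58.1, R 4.3.3). Group means were fitted with lmFit and eBayes, two-sided, with Benjamini-Hochberg adjustment over all probes, 2 residual degrees of freedom and a prior of 1.98. Fold intervals come from this fit. Intensities give no counting error, and the number of arrays limits the precision. The procedure was tested on simulated data with independent noise of the same spread on every array. This leaves out the wider spread of low phosphate b, so the simulation does not check the p-values under it. Probe names came from the platform annotation, which named 5326 probes, and were updated through RefSeq.

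All 10 genes of the pathway were named. Other genes named outside the following rule were picked after their values were seen. Genes of the other pathway and NADPH lists were named when over 1.7-fold different with an unadjusted p under 0.05, and for each stress copy the 3 genes nearest in distance. In the stress list, not all genes over these thresholds were named, whereas all measured genes for checking labels were. A probe counted as above background with signals over 2 times the background in both channels. Members and lists were chosen with earlier results of these data known. Alternatives covered background correction, normalization, a filter on dim probes, single spots, the replicate letter as a block and each array left out.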

Additional observations from a re-analysis of the deposited data

How the results depend on the processing

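Over 17 alternatives the stress copies kept a higher median in low phosphate in each of the 16 that measured them. The filter on dim probes removed them. Leaving out an array gave medians of 0.50 to 2.68 for the stress copies, -0.246 to 0.0279 for the housekeeping copies and 0.46 to 2.52 for the pairs, lowest without low phosphate b for the stress copies and pairs. The housekeeping median, -0.12, was 0.0297 with print-tip loess, 0.0788 with scale between arrays, 7.39e-05 with the deposited log2 ratios and 0.0351 with the authors' stated steps. GND1 was at 0.23, 0.19, 0.17 and 0.23 in these settings, and with an array left out at -0.174 to 0.0895. The causes were not tested.

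The count of probes past an adjusted p of 0.05, 1, was 3 with scale between arrays and 0 with the replicate block, the authors' stated steps, the deposited ratios, trend and robust, loess on spike-in spots, median centring, print-tip loess and normexp offset 0. With an array left out it was 0 to 2018. Probes over the study's thresholds, 102 higher and 94 lower, were 208 and 172 with normexp offset 0, 169 and 164 with the replicate block, 182 lower with loess on spike-in spots, and 35 to 450 and 29 to 486 with an array left out. Genes of the pathway over these thresholds, 1, were 3 with scale between arrays, 2 with trend and robust, normexp offset 0, loess on spike-in spots and median centring, 0 with print-tip loess, the deposited ratios, the authors' stated steps and the filter on dim probes, and 0 to 4 with an array left out. In fits without low phosphate a, the spread of the lone array is taken from the other group. All stress copies, TAL1 and ZWF1 then passed an adjusted p of 0.05 (4.87e-05 to 0.0443, limma), and in no other setting did a gene of the pathway pass. The letters a and b name dye orientations and do not pair cultures. Across probes, arrays of the same letter deviated together with r = 0.28.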

Other observations

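By the gene order of RefSeq's S288C table, SOL3 and GND1 lie on one chromosome with 20 protein-coding genes between them, and SOL4 and GND2 lie on another with 7 between them. Both stretches hold an enolase gene. ENO2, between SOL3 and GND1, read 0.05 and -0.31 under standard phosphate and 0.01 and 1.10 under low phosphate, and ENO1, between SOL4 and GND2, read -0.11 and -0.25, and 0.02 and 1.25. The differences were 0.69 for ENO2 and 0.82 for ENO1, and 0.15 and 0.20 without low phosphate b. The enolase genes were picked after their values were seen. Of the 5 measured genes between SOL4 and GND2, 1 had a mean over 1.7-fold higher in low phosphate, ENO1 itself, and the others were at -0.20 to 0.44. Of the 17 measured between SOL3 and GND1, 0 had such a mean, and of all probes 3.49% did. Without low phosphate b, 0 of the 5 between SOL4 and GND2 were over 1.7-fold, against 0.955% of all probes. Among the 17 measured genes between SOL3 and GND1 is STB5, a regulator of the pathway, with a difference of -0.28 (SE 0.19).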
